A study of Mus musculus with 44 samples.

Results

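A set of 9 carbonic anhydrase genes was followed through 44 libraries of gastric corpus mucosa. They are Car2, Car3, Car4, Car7, Car8, Car9, Car12, Car13 and Car14, taken as a fixed list by gene symbol out of 31414 genes in the table, and the estimated counts of their transcripts were added for each gene. The mice were female, on a BalbC background and 13 months old. The KO mice lacked the beta subunit of the H+/K+ATPase, Atp4b, in every cell because a neomycin construct had been inserted by recombination aimed at exon 1. Mice received netazepide (NTZ, labelled yf), an antagonist of the gastrin/CCKB receptor, in polyethylene glycol (PEG), or PEG alone. There were 13 libraries of KO/PEG, 11 of KO/NTZ, 9 of WT/NTZ and 11 of WT/PEG, each from 1 biopsy of the ventral corpus mucosa, so that RNA of every cell type in the biopsy was pooled. In such samples fewer cells of a type and less RNA per cell cannot be told apart.

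Carbonic anhydrases interconvert carbon dioxide and bicarbonate, with release or uptake of a proton. In the acid-secreting parietal cell this reaction supplies the proton that the H+/K+ATPase exports and the bicarbonate that leaves across the basolateral membrane, and in surface mucous cells it supplies bicarbonate to the mucus layer. The isoforms differ in where they act. Car2, Car3, Car7 and Car13 are cytosolic, Car4 is anchored to the outer cell surface by a lipid, Car9, Car12 and Car14 span the plasma membrane with the active site outside, and Car8 has lost the zinc-binding residues needed for catalysis. Car9 is a classical target of the hypoxia-inducible factors and is abundant in normal gastric epithelium.

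Library totals ranged from 6065084 to 21945124 estimated counts. Atp4b stood between 2140 and 5738 CPM (counts scaled to library size) in WT libraries and between 2.28 and 40.6 CPM in KO libraries, with no overlap between the genotypes. Within the KO genotype, 10 libraries (5 KO/PEG and 5 KO/NTZ) stood apart. In these, between 0.814% and 1.33% of the counts fell on transcripts that had no gene in the annotation used, whereas the other 34 libraries had at most 0.71%. A slope of expression on transcript length, set relative to the WT/PEG mean, was also lower in KO libraries, with medians of -0.40 for KO/PEG and -0.52 for KO/NTZ against 0.00 for WT/PEG and -0.06 for WT/NTZ. Markers of squamous forestomach epithelium (10 genes) summed to a median of 24.2 TPM (counts scaled to transcript length and library size) in KO/PEG and 67.4 TPM in KO/NTZ, and to 700.4 TPM in WT/NTZ but 1.77 TPM in WT/PEG. These measures are set beside the members that moved with them.

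Read per transcript length, Car2 was the leading member in all 4 groups and Car9 the second. In WT/PEG the median levels were 834 TPM for Car2 and 218 TPM for Car9, followed by 29.3 TPM for Car3, 22.5 TPM for Car13, 7.95 TPM for Car8 and 5.46 TPM for Car4. Car14, Car7 and Car12 lay below 1 TPM at 0.763, 0.595 and 0.576 TPM. The library ranges overlapped for Car3 and Car13, for Car8 and Car4, and for Car14, Car7 and Car12. The order of these neighbours is that of their medians, although Car8 was above Car4 within every WT/PEG library. The ranges of Car9 (186 to 240.5 TPM) and Car3 (6.21 to 217 TPM) overlapped as well, and in each of the other 3 groups the highest Car3 library was above the highest Car9 library, so that the second place of Car9 holds for the medians. Car2 was clear of Car9 in every group, because its lowest library (633 TPM, in KO/NTZ) was above the highest Car9 library (240.5 TPM, in WT/PEG).

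The order below Car2 was different in KO libraries. In KO/PEG the median levels were 1154 TPM for Car2, 35.9 TPM for Car9, 16.4 TPM for Car13, 9.68 TPM for Car4, 5.41 TPM for Car8 and 2.30 TPM for Car12, with Car7, Car3 and Car14 below 1 TPM. The ranges of Car9 (19.6 to 58.4 TPM) and Car13 (5.94 to 27.02 TPM) overlapped there. Car9 made up a median of 18.2% of the summed level of the 9 members in WT/PEG and 2.51% in KO/PEG, while Car2 made up 74.6% and 94.2%. The summed level itself had overlapping ranges, 1034 to 1405 TPM in WT/PEG and 885 to 2477 TPM in KO/PEG. The members with an extracellular active site, Car4, Car9, Car12 and Car14, summed to 195 to 247 TPM in WT/PEG and to 30.9 to 77.9 TPM in KO/PEG. That sum was mostly Car9, and its lower level in KO/PEG was not that of Car4 or Car12. The medians of Car4 (5.46 TPM in WT/PEG, 9.68 TPM in KO/PEG) and Car12 (0.576 and 2.30 TPM) were higher in KO/PEG. TPM are not scaled between libraries as the tested counts are, so these values describe the make-up of each group. For Car4 the tested log2 fold change was 0.34 and did not pass with edgeR (adjusted p = 0.189).

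**Figure D1:**
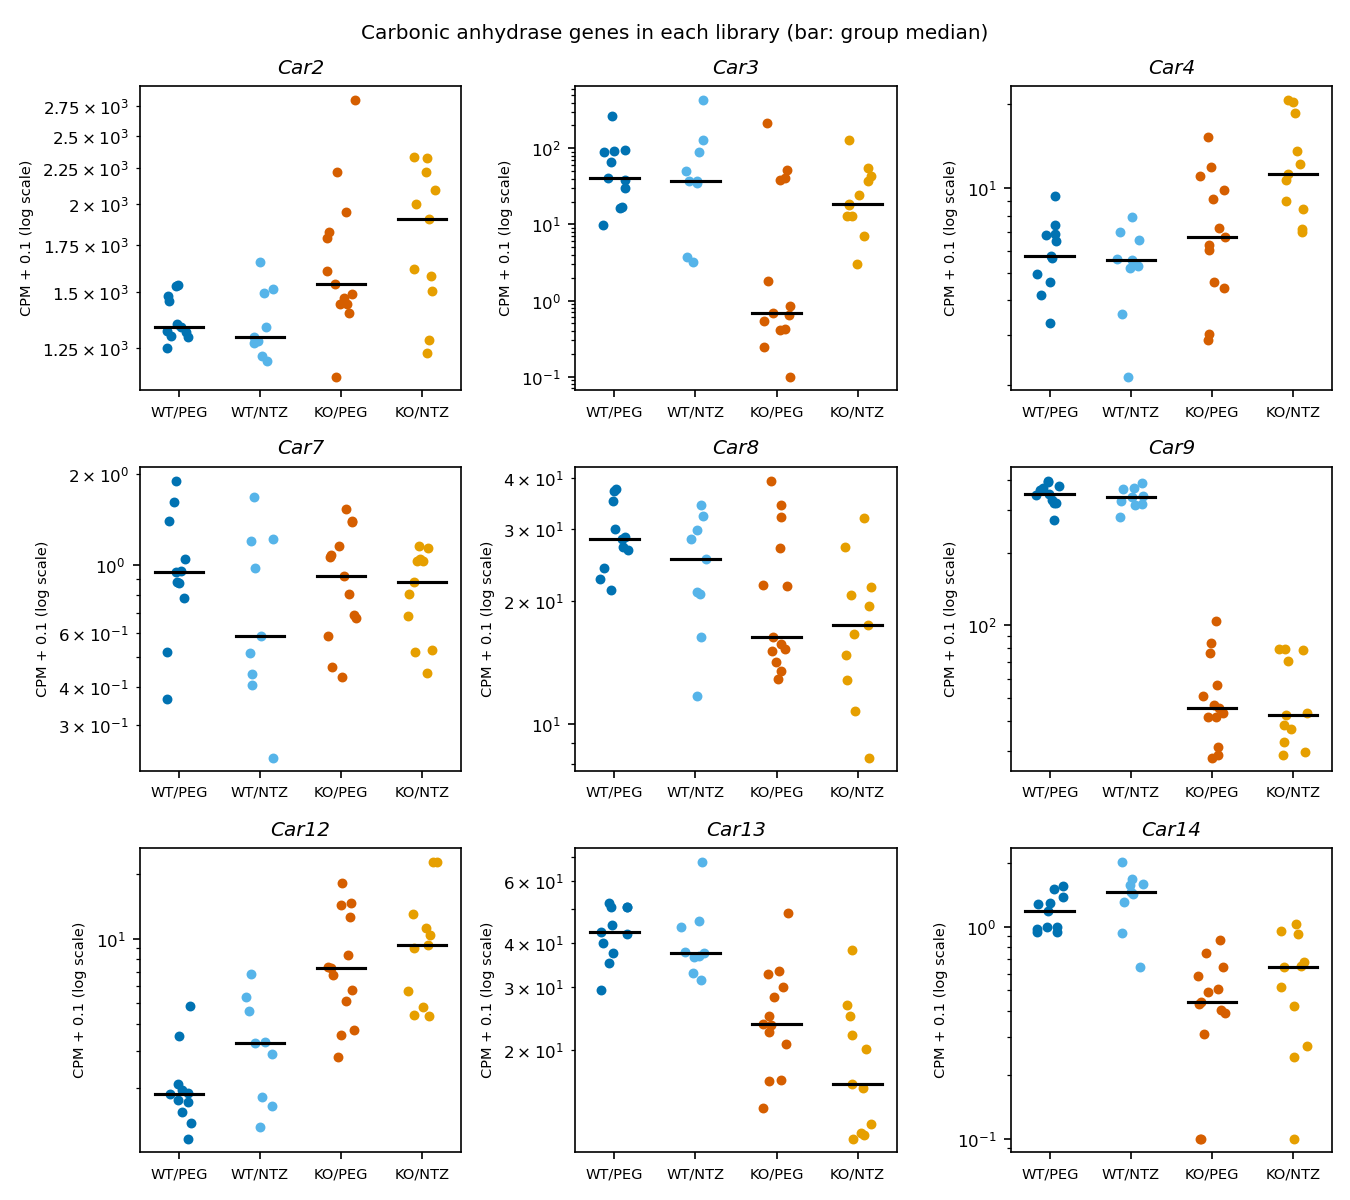
Level of each member in each of the 44 libraries, as CPM plus 0.1 on a log axis, with the 4 groups on the x axis, 1 point for each library and a bar at the group median. All Car9 libraries of the KO genotype lie below all WT libraries, the Car12 medians rise from 1.79 CPM in WT/PEG to 7.16 CPM in KO/PEG, and Car3 falls into libraries under 2 CPM and libraries over 20 CPM in KO/PEG.

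The effect of the genotype under vehicle was read from KO/PEG versus WT/PEG. All 9 members passed the filter on low counts, and 6 of them were called by edgeR's quasi-likelihood test at an adjusted p under 0.05, 2 higher and 4 lower. Among all 14893 genes tested, 37.5% were called higher and 37.2% lower, so that the share of members called was close to the share of all genes. The median log2 fold change of the members was -0.43, against -0.0029 over all genes. Car12 and Car2 rose, Car9, Car14, Car13 and Car8 fell, and Car3, Car4 and Car7 did not pass.

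Car9, the hypoxia-inducible transmembrane enzyme, had the largest fall in fold among the members called by edgeR. It ranged from 273 to 397 CPM in WT/PEG (median 350 CPM) and from 28.1 to 104 CPM in KO/PEG (median 45.3 CPM). The highest KO/PEG library lay below the lowest WT/PEG library. The mean was 350.3 ± 36.7 CPM in WT/PEG (SD, n = 11) and 52.1 ± 22.8 CPM in KO/PEG (SD, n = 13), a 6.73-fold lower level (log2 fold change -2.75, SE 0.19, adjusted p = 5.1e-16). Leaving out single libraries moved the log2 fold change only between -2.87 and -2.70, and without the 10 KO libraries that stood apart it was -2.98.

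Car14, a transmembrane enzyme at a low level in corpus mucosa, fell as well. It ranged from 0.840 to 1.46 CPM in WT/PEG and from 0 to 0.769 CPM in KO/PEG, and 2 KO/PEG libraries had no count. Groups did not overlap, with 8 to 22 counts for a WT/PEG library and at most 14 for a KO/PEG library. The log2 fold change was -1.55 (SE 0.32, adjusted p = 5.1e-05). Car14 passed the filter through its WT libraries, since 13 of 20 WT libraries but only 4 of 24 KO libraries reached the filter's cutoff of 0.819 CPM, which is set on CPM before TMM scaling, and its call therefore adds no support to a count over the members.

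Car12 is the transmembrane enzyme that rose. WT/PEG libraries ranged from 1.07 to 4.76 CPM (median 1.79 CPM) and KO/PEG libraries from 2.70 to 18.1 CPM (median 7.16 CPM). The groups overlapped in 3 KO/PEG libraries, while the other 10 were above the highest WT/PEG library. The level was 4.12-fold higher (log2 fold change 2.04, SE 0.34, adjusted p = 1.2e-06).

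Promoter sequences are shown for these 3 transmembrane members because they moved in opposite directions and because Car9 is known for hypoxia control. RefSeq promoters were found for 5 of the 9 members, Car4, Car7 (3 start sites), Car9, Car12 and Car14. The 250 bases before the start site are given 5′ to 3′ on the gene's strand in build GRCm38.p6, for Car9 at chr4:43506776-43507025 (+), for Car14 at chr3:95904686-95904935 (-) and for Car12 at chr9:66713436-66713685 (+). Capitals mark the core of the hypoxia response element, ACGTG, searched on both strands.
Car9: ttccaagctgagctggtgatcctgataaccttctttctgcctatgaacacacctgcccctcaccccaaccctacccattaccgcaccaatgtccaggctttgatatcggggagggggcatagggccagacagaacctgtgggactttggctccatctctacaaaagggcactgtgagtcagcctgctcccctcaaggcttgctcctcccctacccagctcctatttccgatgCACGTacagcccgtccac
Car14: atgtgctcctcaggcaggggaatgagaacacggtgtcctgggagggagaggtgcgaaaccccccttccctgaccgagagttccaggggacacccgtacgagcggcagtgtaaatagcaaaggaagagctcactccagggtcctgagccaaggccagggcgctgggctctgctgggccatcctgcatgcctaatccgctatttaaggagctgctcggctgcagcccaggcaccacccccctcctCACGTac
Car12: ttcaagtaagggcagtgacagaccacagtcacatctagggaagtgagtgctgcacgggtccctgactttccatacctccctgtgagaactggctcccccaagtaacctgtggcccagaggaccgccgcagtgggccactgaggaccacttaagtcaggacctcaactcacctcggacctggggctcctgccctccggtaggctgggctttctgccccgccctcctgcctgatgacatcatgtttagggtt
The core starts at position -18 from the RefSeq start site in Car9 and at position -7 in Car14, and these letters are not in the Car12, Car4 or Car7 windows. The transcripts counted here start elsewhere, Car9-201 at base 43506966 and Car14-201 at base 95904691 on the minus strand, both inside these windows. The Car9 core therefore lies within Car9-201, and the Car14 core overlaps the first bases of Car14-201. Of 32851 promoter windows of this length, 16.6% hold it. The motif of the estrogen-related receptors, AAGGTCA, was found in none of the member windows and in 4.08% of all windows.

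Among the cytosolic members, Car2 rose slightly and Car13 fell. Car2, the high-activity enzyme of parietal and surface cells, ranged from 1249 to 1533 CPM in WT/PEG and from 1137 to 2809 CPM in KO/PEG. The lowest and the highest library were both KO/PEG, and 7 of 13 KO/PEG libraries were above all WT/PEG libraries. The level was 1.24-fold higher (log2 fold change 0.30, SE 0.11, adjusted p = 0.0146). Car13 ranged from 29.5 to 51.7 CPM in WT/PEG (median 42.9 CPM) and from 13.6 to 48.5 CPM in KO/PEG (median 23.6 CPM), with 9 of 13 KO/PEG libraries below all WT/PEG libraries. Its level was 1.68-fold lower (log2 fold change -0.75, SE 0.18, adjusted p = 2.7e-04).

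Car8, the member without catalytic activity, ranged from 21.2 to 37.3 CPM in WT/PEG and from 12.8 to 39.2 CPM in KO/PEG. Its log2 fold change of -0.43 (SE 0.19) passed narrowly with edgeR (adjusted p = 0.0440), and the call was lost when any of 16 single libraries was left out and without the 10 KO libraries that stood apart (log2 fold change -0.24, adjusted p = 0.287). Car7, a cytosolic isoform best known from neurons, was near the limit of detection at 1 to 28 counts a library, and its log2 fold change was -0.12 with an interval from -0.68 to 0.44.

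The calls for Car13 and Car14 moved with the library measures. Among the 24 KO libraries, after group means were subtracted, the share of counts in transcripts without a gene correlated with Car13 at r = -0.75, with Car14 at r = -0.71, with Car2 at r = -0.67, with Car9 at r = 0.73 and with Car4 at r = 0.80. When the length slope was entered as a covariate, Car13 (log2 fold change -0.06, adjusted p = 0.892) and Car14 (-0.63, adjusted p = 0.345) were no longer called, Car2 (0.59), Car12 (1.96) and Car9 (-3.66) stayed called, and Car4 turned to -0.83 (adjusted p = 0.0233). The slope was lower in every KO library than in every WT library apart from KO/PEG 46 at -0.03, so that its part and that of the genotype cannot be told apart in this fit. Without the 10 KO libraries that stood apart, Car13 (-0.50) and Car14 (-1.25) were still called.

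**Figure D2:**
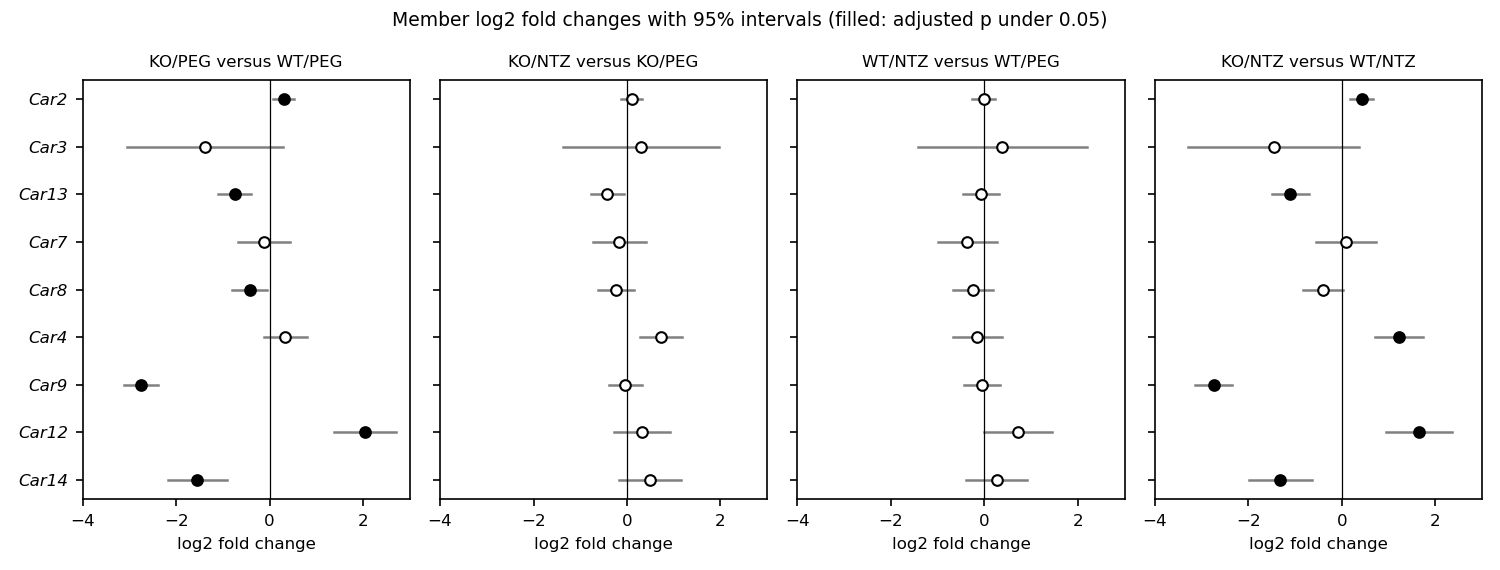
Log2 fold change of each member (point) with the 95% interval (line) in the 4 comparisons, filled where the adjusted p is under 0.05. Car9 sits at -2.75 in both comparisons of KO with WT, and no point is filled in the 2 comparisons of NTZ with vehicle.

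The fall of Car9 and the level of Car4 were carried unequally by their annotated transcripts. Among 30318 transcripts tested, 27.6% were called higher and 25.7% lower in KO/PEG versus WT/PEG. Of 34 member transcripts in the table, 14 were tested, 4 were called higher and 7 lower. Car9-201, Car9-203, Car9-204 and Car9-207 were among those called lower, so that the same gene recurs in this count. Of those called higher, Car4-202, Car9-202 and Car12-201 passed the filter through KO libraries, and their calls add no support to the count. Reads that fit several transcripts are shared out by kallisto, so that a shift between 2 transcripts can reflect where along the gene the reads lay.

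Car9-201, the full protein-coding transcript of 11 exons (chromosome 4, 43506966 to 43513729), ranged from 276 to 388 CPM in WT/PEG and from 26.7 to 70.6 CPM in KO/PEG. The groups did not overlap, and the log2 fold change was -3.11 (SE 0.16, adjusted p = 4.9e-19), larger in size than that of the summed gene. Car9-202, annotated as a processed transcript without a reading frame, ends at the same base and starts 58 bases further in. It ranged from 0 to 1.90 CPM in WT/PEG and from 0 to 54.1 CPM in KO/PEG (log2 fold change 5.96, SE 1.32, adjusted p = 2.1e-04). All KO/PEG libraries above 6 CPM of Car9-202 were among the 5 that stood apart, at 7.96 to 54.1 CPM, while the other 8 had 0 to 5.56 CPM. In KO/NTZ the corresponding ranges were 11.5 to 65.8 CPM in 5 libraries and 2.41 to 17.1 CPM in 6.

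Car4, the lipid-anchored surface enzyme, showed the same division. The full transcript Car4-201 (8 exons) fell from 5.24 to 2.56 CPM in the mean (log2 fold change -1.03, SE 0.28, adjusted p = 0.0021). The short transcript Car4-202, which covers only the 3′ part of the gene in 4 exons and 732 bases, rose from 0.495 to 4.97 CPM (log2 fold change 3.31, SE 0.61, adjusted p = 1.6e-05). The summed gene ranged from 3.21 to 9.28 CPM in WT/PEG and from 2.78 to 15.1 CPM in KO/PEG, and its log2 fold change of 0.34 (SE 0.24, adjusted p = 0.189) did not pass. In the 5 KO/PEG libraries that stood apart it was 9.06 to 15.1 CPM and in the other 8 it was 2.78 to 7.11 CPM. Without the 10 KO libraries that stood apart the log2 fold change of Car4 was -0.19 (adjusted p = 0.416). What made these libraries differ was not tested.

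**Figure D3:**
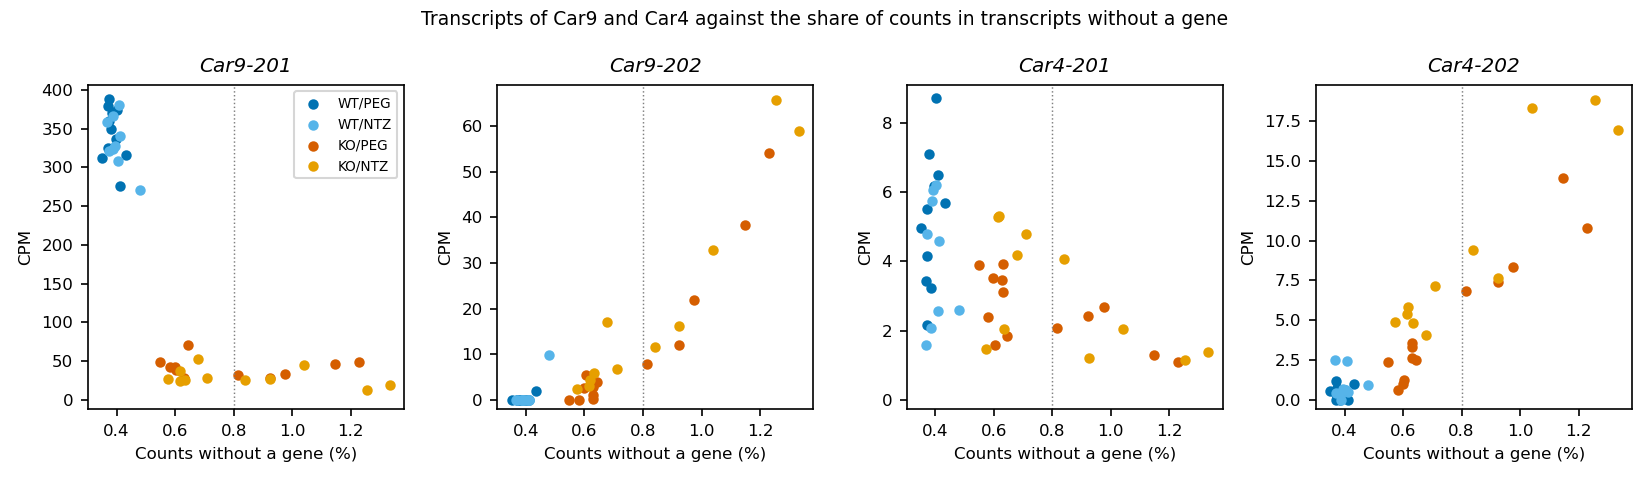
CPM of 2 transcripts each of Car9 and Car4 (y axis) against the percentage of a library's counts in transcripts without a gene (x axis), 1 point for each library, coloured by group, with a dotted line at 0.8%. Car9-202 and Car4-202 climb with that share across the KO libraries, up to 65.8 CPM for Car9-202, whereas Car9-201 stays at or below 70.6 CPM in every KO library and at or above 271 CPM in every WT library.

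Car12 had 2 full-length coding transcripts. Car12-201 was called higher (0.403 to 4.33 CPM in the mean, log2 fold change 3.52, SE 1.32, adjusted p = 0.0225). Car12-202 went from 1.56 to 4.07 CPM (log2 fold change 1.37, SE 0.67, adjusted p = 0.0831) without passing. Some libraries had counts on only 1 of these transcripts. KO/PEG 110 had 0 CPM of Car12-201 and 8.28 CPM of Car12-202, and another KO/PEG library had 5.62 and 0 CPM. Since kallisto shares out reads that fit both, these values do not resolve which of the 2 transcripts rose. Car12 also moved with the squamous markers, at r = 0.47 over 44 libraries after group means were subtracted. With the squamous level as a covariate Car12 was still called between KO/PEG and WT/PEG (log2 fold change 1.91).

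Car3, which is best known from fat, skeletal muscle and liver, was the most variable member. WT/PEG libraries ranged from 9.65 to 268 CPM (median 40.7 CPM), and the KO/PEG median was 0.577 CPM. In KO/PEG, 9 of 13 libraries were under 2 CPM and the other 4 were between 38.5 and 213 CPM, with none between. The log2 fold change of -1.38 (SE 0.85, adjusted p = 0.139) did not pass with edgeR, but limma-trend gave -4.26 (adjusted p = 8.5e-05), and without the KO/PEG library of animal 46 edgeR gave -2.64 (adjusted p = 0.0044).

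The genes whose levels followed Car3 most closely were Adipoq (r = 0.97), Cfd (r = 0.95) and Scd1 (r = 0.87), over 44 libraries with group means subtracted. Adipoq encodes the fat hormone adiponectin, Cfd the fat-derived complement factor D, and Scd1 a desaturase of fatty acids. Adipoq had no count in 7 of 13 KO/PEG libraries and was above 0 in all WT libraries. It reached 22.2 CPM in KO/PEG and spanned 0.392 to 20.1 CPM in KO/NTZ, 0.768 to 35.9 CPM in WT/PEG and 0.186 to 46.9 CPM in WT/NTZ. Between KO/PEG and WT/PEG its difference did not pass with edgeR (log2 fold change -1.29, adjusted p = 0.148). Of 10 adipocyte markers, Adipoq and Cfd among them, 3 were called lower and 1 higher in this comparison. The shares of all genes were 37.2% and 37.5%. The 10 adipocyte markers together ranged from 88.4 to 522 TPM in WT/PEG and from 107 to 564 TPM in KO/PEG, and their summed level correlated with Car3 at r = 0.89. The part of fat in the biopsies in the Car3 values was not tested.

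**Figure D4:**
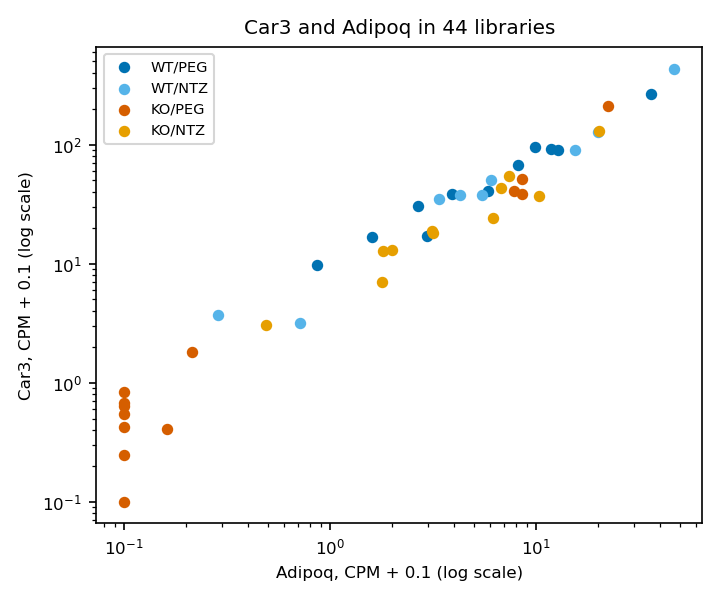
Car3 (y axis) against Adipoq (x axis), both as CPM plus 0.1 on log axes, 1 point for each of the 44 libraries, coloured by group. The points lie along 1 band from KO/PEG libraries without an Adipoq count to a WT/NTZ library with 46.9 CPM of Adipoq and 435 CPM of Car3.

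The effect of the gastrin receptor antagonist was read within each genotype. In KO/NTZ versus KO/PEG none of the 9 members was called by edgeR, against 2.97% of all genes called higher and 2.6% lower. At an unadjusted p under 0.05 there were 2 members, Car4 and Car13. DESeq2 called Car4, and limma-trend called Car4 and Car3. In WT/NTZ versus WT/PEG no member was called either by edgeR or by DESeq2 or limma-trend, and none had an unadjusted p under 0.05, against 1.02% of genes higher and 0.00671% lower. For the difference between the 2 NTZ effects, 0.242% of genes were higher and 0.712% lower, and no member was called, also with DESeq2 and limma-trend, with 1 at an unadjusted p under 0.05.

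Car4 came closest to a call. It ranged from 2.78 to 15.1 CPM in KO/PEG (median 6.63 CPM) and from 6.89 to 20.5 CPM in KO/NTZ (median 11.1 CPM). All 11 KO/NTZ libraries were above the KO/PEG median, but the ranges overlapped. The log2 fold change was 0.73 (SE 0.23, adjusted p = 0.0502). It was called when any of 9 single libraries was left out, with DESeq2 (adjusted p = 0.0315) and without the KO libraries that stood apart (0.88, adjusted p = 0.0227). Neither of its tested transcripts passed with edgeR. The full Car4-201 had 0.23 (SE 0.28, adjusted p = 0.704) and the short Car4-202 had 0.92 (SE 0.53, adjusted p = 0.371). Among the 24 KO libraries Car4 also correlated with the length slope at r = -0.72, and the median slope was lower in KO/NTZ than in KO/PEG. In WT mice the log2 fold change of Car4 was -0.15 (SE 0.26), and the difference between the effects, 0.88 (SE 0.35), had an adjusted p of 0.264.

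Car3 was under 2 CPM in 9 of 13 KO/PEG libraries and in 0 of 11 KO/NTZ libraries, which ranged from 2.94 to 129.2 CPM (median 18.6 CPM). Between these groups edgeR gave a log2 fold change of 0.30 (SE 0.85, adjusted p = 0.843) for Car3 and limma-trend gave 3.13 (adjusted p = 0.0348). The difference between the NTZ effects was -0.08 with edgeR and 3.42 with limma-trend (adjusted p = 0.318). Adipoq, which had no count in 7 KO/PEG libraries, was above 0 in all KO/NTZ libraries.

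The summed Car9 level passed in neither comparison of NTZ with vehicle. KO/NTZ libraries ranged from 28.7 to 79.5 CPM (median 42.2 CPM), and the log2 fold change was -0.04, its interval running from -0.39 to 0.32. WT/NTZ libraries ranged from 280 to 391 CPM, with -0.05 and an interval from -0.43 to 0.34 against WT/PEG. Changes beyond these limits are outside the intervals of the summed gene, whereas changes within them remain compatible with the data. The full transcript Car9-201 ranged from 13.0 to 52.3 CPM in KO/NTZ against 26.7 to 70.6 CPM in KO/PEG. Its log2 fold change was -0.43 (SE 0.15) and did not pass (adjusted p = 0.122). Car13 had a log2 fold change of -0.42 (SE 0.18) in KO/NTZ versus KO/PEG and did not pass (adjusted p = 0.147). Car12 had 0.72 (SE 0.37) in WT/NTZ versus WT/PEG and did not pass (adjusted p = 0.677), and with the squamous level as a covariate this value was 0.17. For Car2 the intervals ran from -0.12 to 0.32 in KO and from -0.26 to 0.22 in WT.

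The genotypes were also compared under NTZ. In KO/NTZ versus WT/NTZ, 6 of 9 members were called, 3 higher and 3 lower, beside 35.6% of all genes higher and 36.8% lower. Car12 (log2 fold change 1.65, SE 0.36), Car4 (1.22, SE 0.26) and Car2 (0.42, SE 0.12) were higher, and Car9 (-2.75, SE 0.20), Car14 (-1.31, SE 0.35) and Car13 (-1.10, SE 0.20) were lower. The Car9 ranges did not overlap. Car4 reached 6.89 to 20.5 CPM in KO/NTZ against 2.04 to 7.78 CPM in WT/NTZ, and 9 of 11 KO/NTZ libraries were above all WT/NTZ libraries. That rise lay in the short transcript Car4-202 (log2 fold change 3.31, SE 0.66, adjusted p = 5.7e-05 with edgeR). The full transcript Car4-201 had -0.42 (SE 0.31) and did not pass (adjusted p = 0.25). With the length slope as a covariate the calls of Car4 (0.09), Car13 (-0.45) and Car14 (-0.40) were lost, and Car12, Car2 and Car9 (-3.69) remained.

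Of the 7 other carbonic anhydrase genes of the annotation, 3 passed the filter. Car5b, the mitochondrial enzyme, fell from 51.2 ± 3.78 CPM in WT/PEG (SD, n = 11) to 27.3 ± 6.15 CPM in KO/PEG (SD, n = 13), without overlap (log2 fold change -0.90, SE 0.11, adjusted p = 1.4e-09). Car15, a lipid-anchored enzyme, fell as well (-0.53, SE 0.24, adjusted p = 0.0403). Car11, a protein without catalytic activity, was higher in KO/NTZ than in WT/NTZ (0.72, SE 0.22, adjusted p = 0.0036) but did not pass in KO/PEG versus WT/PEG (0.14, adjusted p = 0.541). Car1, Car5a, Car6 and Car10 had at most 11 counts in any library.

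Transporters that carry bicarbonate or protons beside these enzymes were read from fixed lists. Of 11 bicarbonate transporters tested, 3 were higher and 7 lower in KO/PEG versus WT/PEG, with a median log2 fold change of -0.52, beside 37.5% and 37.2% of all genes. Slc26a7 (-3.50, SE 0.30) and Slc26a9 (-2.02, SE 0.17), chloride-bicarbonate exchanger and chloride transporter of the gastric epithelium, fell. Cftr (4.93, SE 0.54), the chloride and bicarbonate channel, and Slc4a5 (2.82, SE 0.39), a sodium-bicarbonate cotransporter, rose from medians under 0.04 TPM. Of 9 sodium-proton exchangers, 2 were higher and 5 lower (median -0.45), a share of lower calls to be read against the same 37.2%, among them Slc9a2 (-0.45) and Slc9a7 (-1.38). None of these 20 genes was called by edgeR in either comparison of NTZ with vehicle, where 4 in KO and 2 in WT had an unadjusted p under 0.05.

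Since Car9 is a target of the hypoxia-inducible factors, 20 other targets were set beside it. In KO/PEG versus WT/PEG 9 were higher and 6 lower, with a median log2 fold change of 0.14, and these counts were near the 37.5% and 37.2% of all genes. Pfkfb3 (-1.98), P4ha2 (-1.26) and Egln1 (-0.57) fell with Car9, whereas Pgk1 (0.79), a glycolytic enzyme, rose. In KO/NTZ versus KO/PEG 4 were higher and 1 lower (2.97% and 2.6% of all genes), among them Egln3 (0.61, SE 0.14) and Ero1l (-0.63, SE 0.14), while Car9 stood at -0.04. Of 14 parietal cell markers 13 were lower in KO/PEG, with a median of -1.55.

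Within groups, the genes closest to Car9 over 44 libraries were Pmepa1 (r = 0.81), Slc2a1 (r = 0.81) and Muc1 (r = 0.80), where Slc2a1 is the glucose transporter GLUT1 and Muc1 a membrane mucin. These genes went the other way between genotypes, being higher in KO/PEG than in WT/PEG by 0.98 for Pmepa1, 0.76 for Slc2a1 and 1.15 for Muc1 on the log2 scale. Among the 24 KO libraries Car9 correlated with the summed parietal markers at r = -0.92, although both were lower in KO than in WT. Car13 followed Fut4 (r = 0.92), Bpnt1 (0.90) and Asb13 (0.89). Car2 followed C1galt1c1 (0.80), Vdac3 (0.79) and Pdia3 (0.79), and Car4 followed Ppp1r1b (0.81), Mgmt (0.77) and Gm10012 (0.76). The best values were 0.77 for Car8 (Atp1b1, then Fut9 and Ptprt), 0.71 for Car12 (Ptpn2, then Entpd3 and Nlrp10), 0.82 for Car14 (Gm9385, then Srp54a and Wdr6) and 0.50 for Car7 (Ptf1a, then Pop1 and Prkab1). The points share their library, depth and the measures named above, and each best value was taken from at least 12389 genes compared.

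Between members, the strongest relations were negative. Car9 and Car13 had r = -0.66, Car9 and Car14 had r = -0.61 and Car4 and Car13 had r = -0.58 over 44 libraries. Within single groups, Car9 and Car13 had r = -0.73 in KO/PEG and -0.80 in KO/NTZ but -0.09 among WT/PEG and 0.17 among WT/NTZ libraries. Car9 and Car14 had -0.84 in KO/PEG, -0.52 in KO/NTZ, -0.39 among WT/PEG and 0.51 among WT/NTZ libraries. Car4 and Car13 had -0.58 in KO/PEG, -0.86 in KO/NTZ and -0.63 among WT/PEG libraries, so that their negative relation was not limited to the KO groups. It was near 0 among WT/NTZ libraries. As given above, Car4, Car9, Car13 and Car14 each moved with the share of counts in transcripts without a gene. The summed Car9 level also holds the processed transcript Car9-202. In the KO libraries that stood apart its median was 21.9 CPM in KO/PEG and 33.0 CPM in KO/NTZ, against 1.82 and 5.16 CPM in the others. The part of these measures in the relations was not tested.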

How the data were processed

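Corpus mucosa RNA was prepared with the TruSeq Stranded mRNA kit and sequenced as single reads of 75 cycles on a NextSeq instrument. The authors quantified transcripts with kallisto 0.42.4 on GRCm38 and deposited estimated counts (expected counts) for 94080 transcripts in 44 libraries. Their own tests used sleuth.

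The deposited estimated counts were paired with GENCODE vM21 (92284 transcripts), summed per gene symbol and rounded. The 1796 transcripts without a gene (0.351% to 1.33% of counts) were left out of library sizes. Groups were compared with edgeR 4.0.16 (quasi-likelihood test, TMM, filterByExpr with a minimum count of 10 and total of 15), with all 44 libraries in 1 fit and Benjamini-Hochberg adjustment over 14893 genes. CPM are TMM-scaled. TPM, from annotated lengths and without TMM scaling, compare genes and describe levels, and no test between groups used them. Log2 CPM for correlations used a prior count of 2. Intervals are 95% intervals from the SE. The code was tested on simulated data. Alternatives were other normalizations, filters, tools (DESeq2, limma-trend), library subsets, covariates and each library left out.

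The members, gene lists and tests were chosen with earlier results of these data known. Named genes are all members, the other carbonic anhydrases, the 3 best correlates of each member, and of each pathway list the 4 genes with the smallest p in KO/PEG versus WT/PEG and the 2 in KO/NTZ versus KO/PEG. Slc9a3, Slc9a4, Slc4a3 and Slc4a7, named by this rule for NTZ, did not pass. Some sodium-proton exchangers named by this rule are not reported here.

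Animal number 172 is on 2 WT/PEG libraries, whose counts differed by more than sampling noise (chi-square per degree of freedom 18.3, rank 11 of 55 WT/PEG pairs from the most alike). They are therefore not copies of 1 library, but they may come from 1 animal. Both libraries numbered 172 were kept, and summing them was an alternative. The most alike WT/PEG pair was 130 and 172_2, at 5.96 per degree of freedom against 12.7 for the next pair. Whether these 2 libraries share an animal was not tested. Number 110 is on 1 library of each KO group. The study describes fewer KO/PEG mice than there are libraries with this label, so that some KO/PEG libraries may not be separate animals and p-values then measure only the spread between libraries.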

Additional observations from a re-analysis of the deposited data

Results flagged for a closer look

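In WT/NTZ, the only group of 4 to 10 libraries, 2 members had a library far from the others. For Car3 the highest library had 435 CPM against 3.07 to 127 CPM in the other 8, and its gap to the next library was 0.713 of the group's range, above Dixon's critical value. The same library had the highest Adipoq level of the group, 46.9 CPM. For Car13 the highest library was that of animal 86, at 67.9 CPM, with a gap of 0.594 of the range. Chance flags about 1 in 20 groups, and 9 members were tried. No member's NTZ effect differed between the genotypes at an adjusted p under 0.05.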

How the results depend on the processing

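Under the planned settings Car2, Car4, Car9, Car12, Car13 and Car14 kept their calls, except that Car2 in KO/NTZ versus WT/NTZ was not called among animals numbered below 100 (log2 fold change 0.43, adjusted p = 0.0695) and Car14 could not be tested when only the groups compared were fitted. Car8 in KO/PEG versus WT/PEG was lost with size factors, without a filter, with the WT/PEG pair of 1 animal number summed, without those numbered 110 and with protein-coding transcripts only (adjusted p = 0.0539 to 0.0837). The number of members called in KO/NTZ versus KO/PEG was 0 with edgeR, 1 with DESeq2, 2 with limma-trend, 1 without the KO libraries with over 0.8% of counts in transcripts without a gene, and 0 to 2 when single libraries were left out. In KO/NTZ versus WT/NTZ it was 6, and 3 with the length slope as a covariate. The length slope, the squamous level and the left-out KO libraries were chosen after seeing the data. In KO/PEG versus WT/PEG 6 members were called, 8 with only animals numbered 100 or above and 4 with the length slope. Numbers of 100 or above were on 11 of 11 WT/PEG, 4 of 9 WT/NTZ, 7 of 13 KO/PEG and 1 of 11 KO/NTZ libraries. Animal number is therefore partly confounded with genotype and with NTZ. Leaving out single libraries gave 5 to 7 members in KO/PEG versus WT/PEG and 6 to 7 in KO/NTZ versus WT/NTZ. It gave 0 in WT/NTZ versus WT/PEG and 0 for the difference between the NTZ effects.

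Direction changed for the called value of Car8 in KO/PEG versus WT/PEG, which was 0.27 with the length slope, and for the values that were not called as follows. With the length slope as a covariate, KO/PEG versus WT/PEG gave -0.83 for Car4 and 0.026 for Car7, WT/NTZ versus WT/PEG gave 0.035 for Car2 and 0.058 for Car13, KO/NTZ versus WT/NTZ gave 0.33 for Car8, and the difference between NTZ effects was 0.10 for Car3 and -0.020 for Car9. With the squamous level, Car7 in KO/PEG versus WT/PEG was 0.00018, WT/NTZ versus WT/PEG gave 0.030 for Car2, -0.25 for Car3 and 0.017 for Car13, and the difference was 0.38 for Car3 and -0.0033 for Car8. Without the KO libraries that stood apart, Car4 in KO/PEG versus WT/PEG was -0.19 and the difference for Car9 was -0.090. With limma-trend, Car3 was -0.29 in WT/NTZ versus WT/PEG and 3.42 in the difference. With size factors the difference was -0.0037 for Car8 and -0.0085 for Car9, with DESeq2 -0.0066 and -0.0064, and without a filter -0.0057 for Car9. Protein-coding transcripts gave -0.36 for Car9 in the difference. With only the groups compared, Car2 in WT/NTZ versus WT/PEG was 0.0091. With that WT/PEG pair summed, the difference for Car3 was 0.0051. Without those numbered 110, Car9 in KO/NTZ versus KO/PEG was 0.0057 and the difference for Car8 was -0.010. Animals numbered below 100 gave -0.40 for Car3 in KO/NTZ versus KO/PEG. Leaving out single libraries also took values that were not called across 0, namely Car7 in KO/PEG versus WT/PEG (-0.22 to 0.030) and in KO/NTZ versus WT/NTZ (-0.031 to 0.31), Car2 (-0.053 to 0.0092) and Car3 (-0.54 to 0.87) in WT/NTZ versus WT/PEG, Car3 (-0.21 to 1.56) and Car9 (-0.12 to 0.077) in KO/NTZ versus KO/PEG, and the differences for Car3 (-0.59 to 1.18), Car8 (-0.089 to 0.13) and Car9 (-0.086 to 0.12). The cause was not tested. Within KO/PEG alone the correlation of Car9 and Car14 was -0.84 and that of Car12 and Car13 was -0.70, against -0.47 over all libraries.

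No paired analysis was possible because the groups compared share at most 1 animal number. Car7 and Car14 had few counts, which limits their precision. Library measures and genotype move together.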
